A study of Arabidopsis thaliana with 9 samples.

Results

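Nuclear genes for photosynthesis were examined in the root oscillation zone of Arabidopsis thaliana, a pale tissue behind the root tip. Membership follows from gene function, and the list was drawn up with earlier results of these data known. It holds 46 nuclear genes for subunits of photosystems I and II, their light-harvesting antenna, the Rubisco small subunit, plastocyanin, the Rieske protein and the chloroplast ATP synthase. Of these, 44 are in the deposited expression table of 31124 loci, and PSBW (AT2G30570) and PSAD2 (AT1G03130) are not analysed here. Each gene was found by its locus identifier.

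Total RNA came from 3 groups of 3 samples each. The potent line is altered in IAA18, a repressor of auxin response, and the arf7 line in ARF7, an auxin response factor; the labels name no allele for either and no ecotype for the mutants. The control was Col0, sampled when the oscillation was at its minimum. All plants grew under 16 hours of light and 8 hours of dark on medium with sucrose, expression of DR5::Luciferase, a reporter of auxin response, was followed, and zones were cut out by hand at 7 dpi. The labels do not give the oscillation phase of the mutants or the hour of dissection, so genotype and these conditions cannot be told apart. The number of roots in a sample is not stated in the labels.

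The table gives 1 FPKM value (fragments per kilobase of transcript, scaled to the mapped total) per locus and genotype, so the 3 samples had already been combined and no spread between samples can be given. No test was therefore run. The words rose and fell are kept for genes that the authors' deposited table of comparisons lists with a q-value, and the others are described by their values. Across the table, 16603 loci in potent, 16217 in arf7 and 15957 in the control reached 1 FPKM, and the depth of the samples is unknown. ARF7 itself (AT5G20730) had 2.64 FPKM in arf7 against 12.0 FPKM in the control, and IAA18 (AT1G51950) had 21.8 FPKM in potent, 19.1 FPKM in arf7 and 10.6 FPKM in the control, so its level does not set the potent line apart from arf7. In bulk tissue, fewer cells of a type and less RNA per cell cannot be told apart.

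In chloroplasts, photosystem II takes electrons from water, the cytochrome b6f complex and plastocyanin pass them to photosystem I, and the proton gradient built on the way drives ATP synthase. The antenna proteins bind the chlorophyll that feeds both photosystems, and Rubisco fixes carbon dioxide. Root plastids are mostly not green, but Arabidopsis roots can form chloroplasts in light. This greening is known to be held back by auxin, through a pathway that includes ARF7, and to be promoted by cytokinin and by the transcription factors GLK2 and HY5.

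Upstream sequences are shown for 4 of the genes that the authors' deposited table lists as higher in potent, and for LHCB1.3, the most abundant copy of the main antenna gene family in all 3 genotypes. Each is the 200 bases before the annotated gene start, 5′ to 3′ on the coding strand. They were read from RefSeq's TAIR10.1 by locus identifier, while the submitters' processing notes name TAIR10. These 5 windows hold no part of another annotated gene. Capitals mark matches, on either strand, to any of 5 short motifs known from light-regulated, auxin-regulated or general plant promoters: the G-box CACGTG, the I-box GATAAG, the inverted CAAT motif CCAATC, the auxin response element TGTCTC and the TATA box TATAAA. No base lies in more than 1 match.
PETC, chr4:1439946-1440145, plus strand: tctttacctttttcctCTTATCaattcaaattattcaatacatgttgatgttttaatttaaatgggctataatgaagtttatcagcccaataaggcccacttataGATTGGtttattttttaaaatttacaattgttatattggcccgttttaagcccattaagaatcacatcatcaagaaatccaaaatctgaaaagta
LHCA3, chr1:22699515-22699714, plus strand: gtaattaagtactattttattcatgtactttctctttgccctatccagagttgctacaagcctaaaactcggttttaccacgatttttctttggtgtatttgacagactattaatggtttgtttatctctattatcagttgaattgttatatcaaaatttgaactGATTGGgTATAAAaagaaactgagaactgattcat
PSAF, chr1:11216142-11216341, minus strand: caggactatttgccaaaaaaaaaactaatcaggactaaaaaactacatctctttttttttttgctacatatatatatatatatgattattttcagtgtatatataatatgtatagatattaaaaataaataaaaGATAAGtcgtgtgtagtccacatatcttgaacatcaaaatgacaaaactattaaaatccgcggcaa
PSBR, chr1:29735752-29735951, plus strand: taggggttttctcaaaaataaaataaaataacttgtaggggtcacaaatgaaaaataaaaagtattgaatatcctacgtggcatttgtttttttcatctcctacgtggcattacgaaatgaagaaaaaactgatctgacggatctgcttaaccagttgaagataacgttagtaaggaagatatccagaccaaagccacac
LHCB1.3, chr1:10477685-10477884, plus strand: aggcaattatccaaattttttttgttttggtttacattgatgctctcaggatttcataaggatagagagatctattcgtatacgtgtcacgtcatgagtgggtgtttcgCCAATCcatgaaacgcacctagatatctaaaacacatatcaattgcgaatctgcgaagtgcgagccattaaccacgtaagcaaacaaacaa
The windows differ in what they hold. PETC has an I-box and a CCAATC match, LHCA3 a CCAATC match followed by a TATA box match, PSAF an I-box, LHCB1.3 a CCAATC match, and PSBR has none of the 5. PSBO1 and LHCB1.2, also listed as higher in potent, are not shown. The PSBO1 window has an auxin response element match and a TATA box match, and it holds part of another gene. The LHCB1.2 window has no match. Over all 46 genes, 19.6% of windows hold a G-box, 23.9% an I-box, 26.1% the CAAT motif, 8.7% the auxin response element and 37.0% the TATA box. Among 27443 windows of nuclear protein-coding genes the shares were 5.64% for the G-box, 9.97% for the I-box, 8.43% for the CAAT motif, 8.94% for the auxin response element and 41.0% for the TATA box. Of the 46 windows, 18 hold part of another gene, and the matches describe the letters only.

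Most of the photosynthesis genes had higher values in potent than in the control. Of the 44 genes, 41 had a higher value in potent and 3 a lower one, and 33 were at least 2-fold higher on the log2(FPKM + 1) scale, or 75.0%, where 17.5% of all loci above 0 were. PETE1 alone was at least 2-fold lower, against 14.1% of all loci. Loci below 1 FPKM in both genotypes cannot reach 2-fold on this scale, which lowers the shares of all loci here and below. Of the 44 genes, 36 reached 1 FPKM in potent. No share was taken over loci of similar level. The median log2 ratio of potent over control was 1.63 for these genes and 0.03 for all loci. Summed over the 44 genes, the level was 1636 FPKM in potent and 431 FPKM in the control, 3.80-fold higher in potent. The authors' deposited table lists 6 of the 44 as higher in potent (PSBO1, PSBR, PSAF, LHCA3, LHCB1.2 and PETC) and PETE1 as lower, where it lists 3.44% of loci as higher and 3.92% as lower. All of these 7 entries carry a q of 0.00145 in the authors' deposited table.

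Values in arf7 were higher than in the control for 39 of the 44 genes and lower for 5. Of the 44, 21 were at least 2-fold higher, or 47.7%, against 12.9% of all loci, and 1, again PETE1, was at least 2-fold lower, against 11.2% of all loci. The median log2 ratio of arf7 over control was 0.97 for these genes and near 0 for all loci. The summed level was 969 FPKM in arf7, 2.25-fold above the 431 FPKM of the control. None of the 44 is in the authors' deposited table for arf7, which lists 2.02% of loci as higher and 2.55% as lower. Both mutants were set against the same control samples, so these 2 comparisons are not independent.

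**Figure D1:**
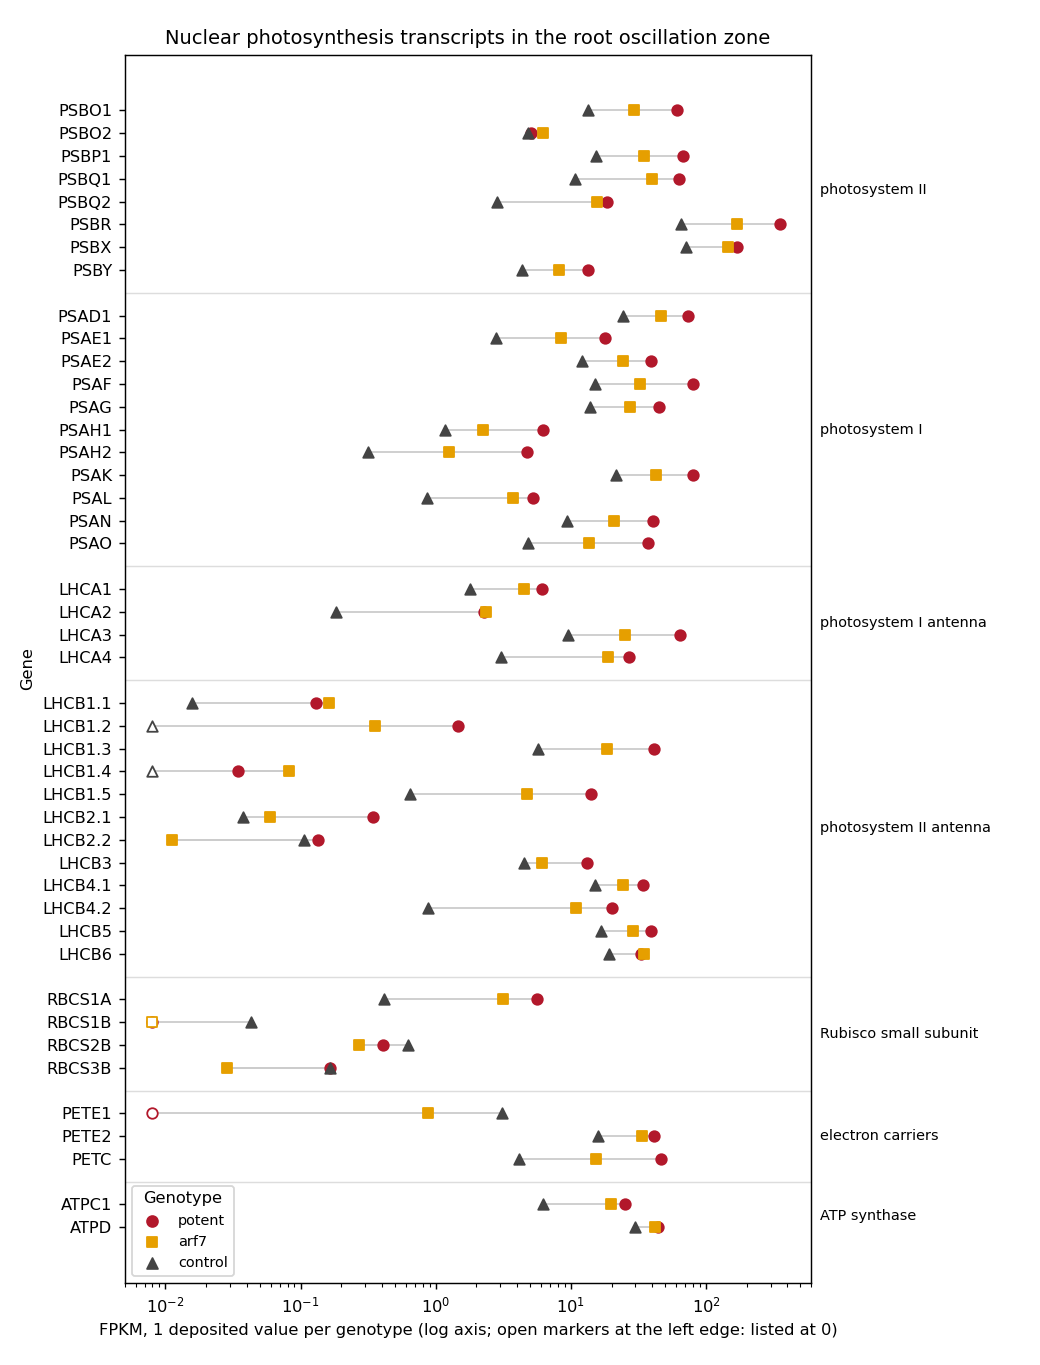
FPKM of the 44 photosynthesis genes (rows, grouped by complex) in potent (circles), arf7 (squares) and control (triangles) on a log axis, with 1 deposited value per genotype and open markers for values listed at 0; the open circle of RBCS1B lies under its square. Circles lie to the right of triangles in 41 rows, and PETE1 runs the other way.

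Photosystem II was the most abundant group. Its 8 measured subunits summed to 749 FPKM in potent, 450 FPKM in arf7 and 187 FPKM in the control, and PSBR and PSBX made up 69.4%, 70.2% and 72.6% of these sums. PSBR (AT1G79040), a small subunit needed for stable assembly of the oxygen-evolving part, had the highest level of all 44 genes in both mutants. It had 350 FPKM in potent, 171 FPKM in arf7 and 65.3 FPKM in the control. PSBR rose in potent, with a log2 fold change of 2.42 in the authors' deposited table. PSBX (AT2G06520), a small membrane subunit, had 170 FPKM in potent, 145 FPKM in arf7 and 70.6 FPKM in the control, the highest control level of the 44.

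The extrinsic proteins that shield the manganese cluster of photosystem II were high in the same order of genotypes, apart from 1 gene. PSBO1 (AT5G66570), the main manganese-stabilising protein, had 61.2 FPKM in potent, 29.4 FPKM in arf7 and 13.3 FPKM in the control, and it rose in potent in the authors' deposited table. Its paralogue PSBO2 (AT3G50820) had similar values in all groups, with 5.07 FPKM in potent, 6.19 FPKM in arf7 and 4.82 FPKM in the control. PSBO1 thus made up 92.4% of the pair's FPKM in potent, 82.6% in arf7 and 73.4% in the control. The 2 coding sequences are 83.8% identical and share no stretch of 50 bases.

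PSBP1 (AT1G06680), an extrinsic subunit that regulates oxygen evolution, had 67.7 FPKM in potent, 34.5 FPKM in arf7 and 15.3 FPKM in the control. It is not listed although its 4.42-fold difference is close to the 4.61-fold difference of PSBO1, which is. The PSBQ genes encode another extrinsic subunit. PSBQ1 (AT4G21280) had 62.9 FPKM in potent, 40.1 FPKM in arf7 and 10.7 FPKM in the control, and PSBQ2 (AT4G05180) had 18.6 FPKM in potent, 15.7 FPKM in arf7 and 2.86 FPKM in the control. PSBQ1 lay 2.55 to 3.74 times above PSBQ2 in every genotype. PSBY (AT1G67740), which encodes small membrane peptides, had 13.4 FPKM in potent, 8.15 FPKM in arf7 and 4.33 FPKM in the control. Of the 44 genes, 15 that are not listed in potent had a larger fold over the control than PSBO1. Of these 15, 3 had a control level of at least 4.16 FPKM, the lowest above 0 among the genes listed as higher. Absence from the list is therefore not evidence of no change.

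Every measured subunit of photosystem I was at least 2-fold higher in potent than in the control on the log2(FPKM + 1) scale, 11 of 11. Of all loci, 17.5% were. In arf7, 5 of the 11 were at least 2-fold higher, or 45.5%, against 12.9% of all loci. Their sum was 429 FPKM in potent, 224 FPKM in arf7 and 106 FPKM in the control. PSAF (AT1G31330), the subunit at which plastocyanin docks, had 79.9 FPKM in potent, 32.7 FPKM in arf7 and 15.1 FPKM in the control. PSAF rose in potent by 2.41 on the log2 scale in the authors' deposited table. The other 10 are not listed, and in each of them the order of values was potent, arf7, control.

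PSAK (AT1G30380), an outer membrane subunit next to the antenna, had 80.6 FPKM in potent, 42.9 FPKM in arf7 and 21.6 FPKM in the control. PSAD1 (AT4G02770), part of the ferredoxin docking site, had 73.0 FPKM in potent, 46.1 FPKM in arf7 and 24.3 FPKM in the control. PSAO (AT1G08380), next to the docking site of the mobile antenna, had the largest log2 ratio of potent over control in photosystem I on the log2(FPKM + 1) scale, 2.72, with 37.3 FPKM in potent, 13.6 FPKM in arf7 and 4.82 FPKM in the control. PSAG (AT1G55670), next to the photosystem I antenna, had 44.9 FPKM in potent, 27.4 FPKM in arf7 and 13.8 FPKM in the control. PSAN (AT5G64040), the subunit on the lumen side, had 40.2 FPKM in potent, 20.8 FPKM in arf7 and 9.39 FPKM in the control. PSAK, PSAD1, PSAG and PSAN therefore lay between 3.01-fold and 4.28-fold above the control in potent.

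The low end of photosystem I held PSAL (AT4G12800), at 5.21 FPKM in potent, 3.75 FPKM in arf7 and 0.857 FPKM in the control, and the PSAH genes, which with PSAL form the side of the complex where mobile antenna docks. PSAH1 (AT3G16140) had 6.21 FPKM in potent, 2.23 FPKM in arf7 and 1.16 FPKM in the control, and PSAH2 (AT1G52230) had 4.70 FPKM in potent, 1.26 FPKM in arf7 and 0.317 FPKM in the control. PSAH1 overlaps a gene on the opposite strand over 788 bases, and the library protocol does not mark strand, so its level is uncertain. The same holds for PSAG and PSAE1, which overlap a gene on the opposite strand over 479 and 436 bases. The PSAE genes, for another stromal subunit, kept PSAE2 (AT2G20260) ahead: it had 38.9 FPKM in potent, 24.5 FPKM in arf7 and 12.0 FPKM in the control. PSAE1 (AT4G28750) had 17.9 FPKM in potent, 8.47 FPKM in arf7 and 2.80 FPKM in the control, or 31.5%, 25.7% and 18.9% of the pair's FPKM.

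The 4 antenna genes of photosystem I summed to 98.9 FPKM in potent, 50.8 FPKM in arf7 and 14.6 FPKM in the control, 6.78-fold higher in potent than in the control, the largest ratio of sums among the 7 groups of genes. LHCA3 (AT1G61520) rose in potent, with a log2 fold change of 2.73 in the authors' deposited table. It had 63.7 FPKM in potent, 25.1 FPKM in arf7 and 9.57 FPKM in the control. LHCA4 (AT3G47470), whose protein pairs with that of LHCA1, had 26.8 FPKM in potent, 18.8 FPKM in arf7 and 3.03 FPKM in the control. LHCA1 (AT3G54890) was lower throughout, at 6.15 FPKM in potent, 4.49 FPKM in arf7 and 1.80 FPKM in the control. LHCA2 (AT3G61470) had nearly equal values in the mutants, 2.29 FPKM in potent and 2.36 FPKM in arf7, against 0.181 FPKM in the control. LHCA2 has 10.2% of its 50-base windows elsewhere in the genome, so its level is uncertain.

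**Figure D2:**
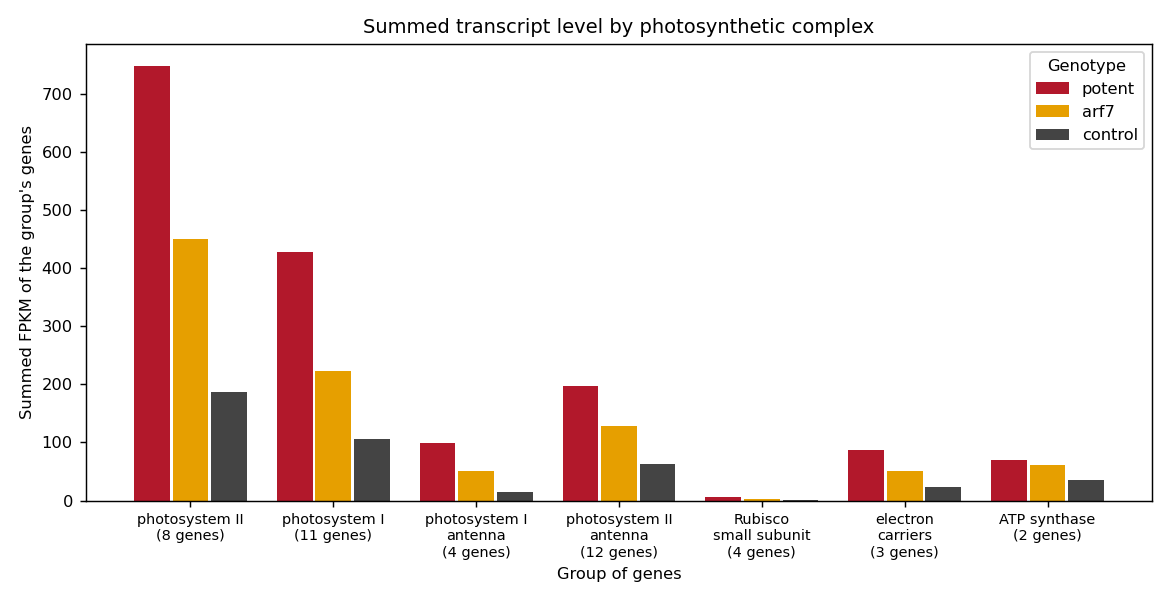
Summed FPKM (linear axis from 0) of the measured genes of each complex in potent, arf7 and control. Photosystem II has the tallest bars, 749, 450 and 187 FPKM, and the Rubisco small subunit the shortest, 6.23, 3.45 and 1.24 FPKM.

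The antenna of photosystem II was uneven. Its 12 genes summed to 197 FPKM in potent, 129 FPKM in arf7 and 62.9 FPKM in the control. At least 2-fold higher were 7 of 12 in potent, or 58.3%, against 17.5% of all loci. In arf7 3 of 12 were, or 25%, against 12.9%. The minor antenna proteins link the core to the outer antenna, and 3 of their 4 genes had the highest control levels of the group. LHCB6 (AT1G15820) had 33.0 FPKM in potent, 35.0 FPKM in arf7 and 19.2 FPKM in the control, and it overlaps a gene of long non-coding RNA on the opposite strand over 358 bases. LHCB5 (AT4G10340) had 39.2 FPKM in potent, 28.7 FPKM in arf7 and 16.6 FPKM in the control. LHCB4.1 (AT5G01530) had 34.1 FPKM in potent, 24.4 FPKM in arf7 and 15.1 FPKM in the control.

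LHCB4.2 (AT3G08940), a second gene for the protein of LHCB4.1, had the largest potent over control ratio of all 44 genes on the log2(FPKM + 1) scale, 3.48, and also the largest for arf7, 2.67. Its level was 20.1 FPKM in potent, 11.0 FPKM in arf7 and 0.883 FPKM in the control. LHCB4.1 stood 1.70-fold above LHCB4.2 in potent, 2.23-fold in arf7 and 17.1-fold in the control. The 2 coding sequences are 81.9% identical with no shared 50-base window. LHCB4.2 is not listed in either mutant. LHCB3 (AT5G54270), a subunit of the trimeric antenna, had 13.1 FPKM in potent, 6.10 FPKM in arf7 and 4.49 FPKM in the control.

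The LHCB1 and LHCB2 genes encode the most abundant antenna proteins of leaves, and their copies share sequence. LHCB1.3 (AT1G29930, also called CAB1) had 40.9 FPKM in potent, 18.4 FPKM in arf7 and 5.71 FPKM in the control. LHCB1.5 (AT2G34420) had 14.0 FPKM in potent, 4.70 FPKM in arf7 and 0.644 FPKM in the control, but its transcript lies within a gene of long non-coding RNA on the opposite strand. LHCB1.2 (AT1G29910) is also called CAB3, and is named LHCB1.1 in the authors' deposited table. It had 1.46 FPKM in potent and 0.353 FPKM in arf7 and is listed at 0 in the control. It is the copy that the authors' deposited table lists as higher in potent. LHCB1.1 (AT1G29920) and LHCB1.4 (AT2G34430) stayed below 1 FPKM in all 3 genotypes, as did LHCB2.1 (AT2G05100) and LHCB2.2 (AT2G05070). The coding sequences of LHCB1.1, LHCB1.2 and LHCB1.3 are 95.7% to 96.4% identical. Of the 50-base windows of the 5 LHCB1 transcripts, 10.7% to 20.5% occur elsewhere in the genome, and 22.7% and 28.2% of those of LHCB2.1 and LHCB2.2. How the reads were divided among these copies is therefore uncertain.

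The small subunit of Rubisco stood at the bottom in every genotype. Its 4 genes summed to 6.23 FPKM in potent, 3.45 FPKM in arf7 and 1.24 FPKM in the control. RBCS1A (AT1G67090), which has no 50-base window in common with the others, accounted for most of this in the mutants, with 5.66 FPKM in potent, 3.15 FPKM in arf7 and 0.411 FPKM in the control. RBCS2B (AT5G38420) ran the other way at a low level, with 0.404 FPKM in potent, 0.269 FPKM in arf7 and 0.621 FPKM in the control. RBCS3B (AT5G38410) stayed at or below 0.166 FPKM, and RBCS1B (AT5G38430) is listed at 0 in both mutants and had 0.0429 FPKM in the control. The 3 B genes are 96.7% to 97.3% identical to each other in coding sequence, so their split is uncertain too.

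The electron carriers held both the largest listed increase with a finite fold change and the single listed decrease. PETC (AT4G03280) encodes the Rieske iron-sulphur protein of the cytochrome b6f complex, and its annotation describes it as expressed in the shoot and not in the root. It had 46.1 FPKM in potent, 15.4 FPKM in arf7 and 4.16 FPKM in the control, and it rose in potent by 3.47 on the log2 scale in the authors' deposited table. Plastocyanin is encoded by a pair of genes that differed in direction. PETE2 (AT1G20340), annotated as the predominant form, had 41.5 FPKM in potent, 33.9 FPKM in arf7 and 15.9 FPKM in the control and is not listed. PETE1 (AT1G76100) is listed at 0 in potent and had 0.869 FPKM in arf7 and 3.12 FPKM in the control, and it fell in potent in the authors' deposited table. A value of 0 can be a failed estimate in these data, since 12 loci at 0 in potent had at least 20 FPKM in both other genotypes. The same was true of 12 loci at 0 in the control, so the listed increase of LHCB1.2 has this limit too. The 2 plastocyanin coding sequences are 75.0% identical, with no shared 50-base window.

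The ATP synthase subunits had the smallest ratio of sums to the control among the 7 groups, 1.93-fold in potent and 1.73-fold in arf7, but the 2 genes were unlike. ATPD (AT4G09650), the delta subunit, had 44.0 FPKM in potent, 42.0 FPKM in arf7 and 29.6 FPKM in the control, 1.49-fold and 1.42-fold above the control. ATPC1 (AT4G04640), the gamma subunit that turns in the rotor, had 25.2 FPKM in potent, 19.8 FPKM in arf7 and 6.22 FPKM in the control, 4.05-fold and 3.19-fold above the control.

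Set directly against each other, potent had the higher value in 37 of 43 genes above 0 and arf7 in 6. Of the 43, 10 were at least 2-fold higher in potent, or 23.3%, against 8.57% of all loci, and 0 were at least 2-fold lower, against 5.62% of all loci. No listing by the authors for potent against arf7 was used here, and no test was possible. The median log2 ratio of potent over arf7 was 0.65 for these genes and 0.01 for all loci. On the log2(FPKM + 1) scale, the largest ratio of potent over arf7 was 1.52 for PETC, followed by LHCB1.5 and by PSAO with 1.39. In FPKM the widest gap was that of PSBR, and genes near 0 such as LHCB2.2 had larger plain folds. The 6 genes with a lower value in potent than in arf7 were PSBO2, LHCA2, LHCB1.1, LHCB1.4, LHCB6 and PETE1.

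**Figure D3:**
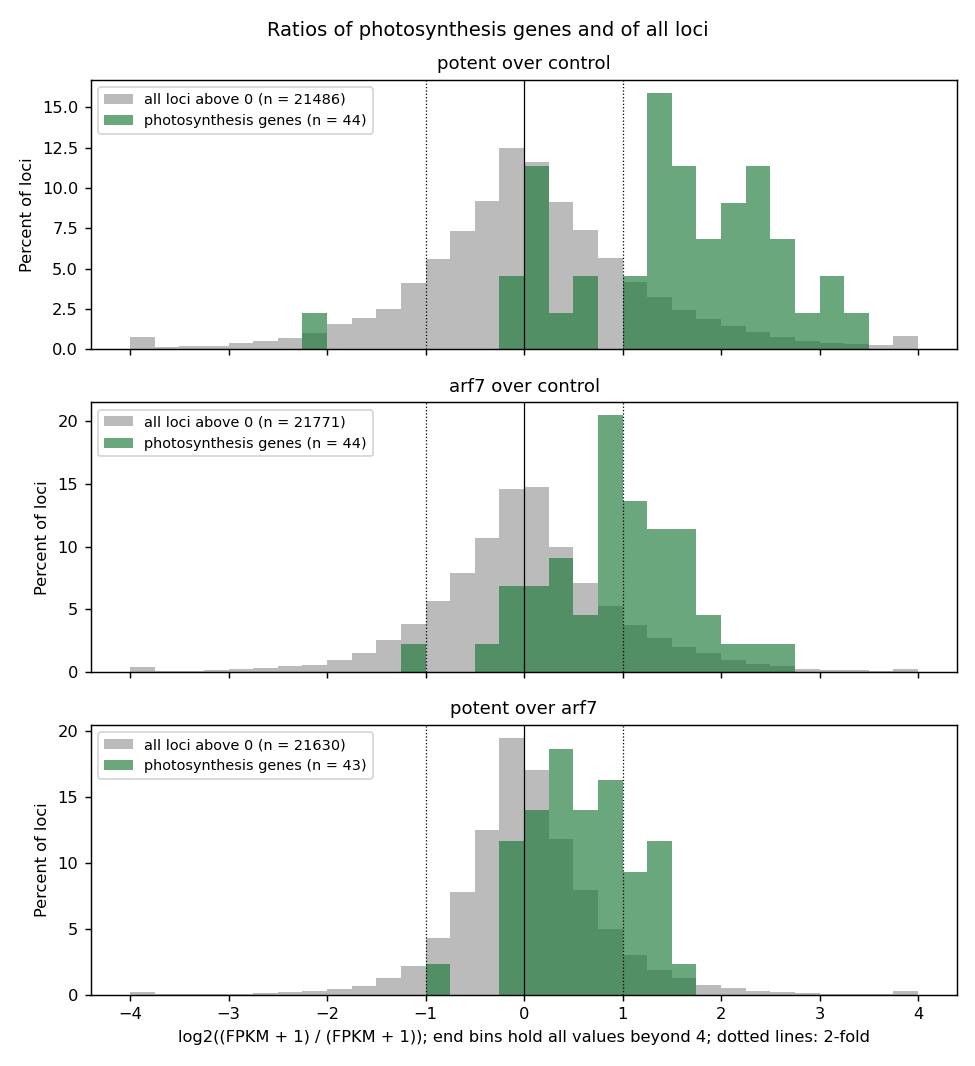
Share of loci (percent) by log2 ratio on the log2(FPKM + 1) scale, for all loci above 0 (grey) and the photosynthesis genes (green), with dotted lines at 2-fold and values beyond 4 placed in the end bins. The green medians are 1.63 for potent over control, 0.97 for arf7 over control and 0.65 for potent over arf7, while the grey medians lie between 0.00 and 0.03.

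Other nuclear genes of the photosynthetic apparatus that are not in the list of 46 were less uniform. At least 2-fold higher were 10 of the 20 above 0 in potent or control, or 50%, against 17.5% of all loci, and 8 of the 21 above 0 in arf7 or control, or 38.1%, against 12.9%. The median log2 ratios were 1.01 and 0.60. Among the largest were PETM (AT2G26500), a small subunit of the cytochrome b6f complex, and PSBTN (AT3G21055), a small subunit of photosystem II, neither of them listed. PETM had 35.0 FPKM in potent, 16.2 FPKM in arf7 and 2.84 FPKM in the control, and PSBTN had 29.4 FPKM in potent, 16.8 FPKM in arf7 and 3.62 FPKM in the control. PSB27 (AT1G03600), a photosystem II assembly factor, had 7.55 FPKM in potent, 1.37 FPKM in arf7 and 0.0960 FPKM in the control. FD2 (AT1G60950), the main leaf ferredoxin, and ATPG (AT4G32260), another ATP synthase subunit, rose in potent in the authors' deposited table, with q of 0.00587 and 0.00382. FD2 had 80.5 FPKM in potent, 53.4 FPKM in arf7 and 22.7 FPKM in the control, and ATPG had 80.0 FPKM in potent, 44.9 FPKM in arf7 and 19.5 FPKM in the control. The most abundant of them, FD1 (AT1G10960), a second leaf-type ferredoxin, had 301 FPKM in potent, 204 FPKM in arf7 and 259 FPKM in the control. The stress-induced antenna relatives ELIP1 (AT3G22840) and ELIP2 (AT4G14690) were not higher in the mutants. ELIP1 had 94.9 FPKM in potent, 97.8 FPKM in arf7 and 101 FPKM in the control, and ELIP2 had 32.9 FPKM in potent, 43.7 FPKM in arf7 and 63.1 FPKM in the control.

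Of 17 measured genes of chlorophyll synthesis, 16 were above 0. At least 2-fold higher were 5 in potent, or 31.2%, against 17.5% of all loci, and 1 in arf7, or 6.25%, against 12.9%. The median log2 ratios were 0.51 in potent and 0.50 in arf7. None is listed, where 3.44% of all loci are listed as higher in potent and 2.02% in arf7, so 0 of 17 is close to that background. CRD1 (AT3G56940), an enzyme that closes the fifth ring of chlorophyll, had 44.0 FPKM in potent, 28.1 FPKM in arf7 and 7.98 FPKM in the control. HEMA1 (AT1G58290), which controls entry into the pathway, had 24.2 FPKM in potent, 27.8 FPKM in arf7 and 18.9 FPKM in the control. PORA (AT5G54190), known from dark-grown seedlings, is listed at 0 in all 3. PORB (AT4G27440) had 20.8 FPKM in potent, 6.71 FPKM in arf7 and 4.02 FPKM in the control. The 5 genes at least 2-fold higher in potent were CRD1, PORB, GUN4, CHLI1 and CHLM.

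Calvin cycle genes were mixed. CP12-1 (AT2G47400), a small regulator of the cycle, rose in potent with a q of 0.00382 in the authors' deposited table. It had 61.7 FPKM in potent, 36.2 FPKM in arf7 and 14.4 FPKM in the control. SBPASE (AT3G55800), an enzyme of the regeneration phase, rose in arf7 in the authors' deposited table. It had 0.761 FPKM in potent, 1.15 FPKM in arf7 and a value of 0 in the control, which can be a failed estimate. The abundant TIM (AT2G21170), TKL1 (AT3G60750) and PGK2 (AT1G56190) stood at 0.737 to 1.03 times the control in the mutants. PRK (AT1G32060) and FBA1 (AT2G21330) are listed at 0 in all 3 genotypes. RCA (AT2G39730), which activates Rubisco and is not listed, had 29.8 FPKM in potent, 9.17 FPKM in arf7 and 2.29 FPKM in the control. At least 2-fold higher were 3 of 14 Calvin cycle genes above 0 in potent or control, or 21.4%, near the 17.5% of all loci, and 3 of 13 above 0 in arf7 or control, or 23.1%, against 12.9%.

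**Figure D4:**
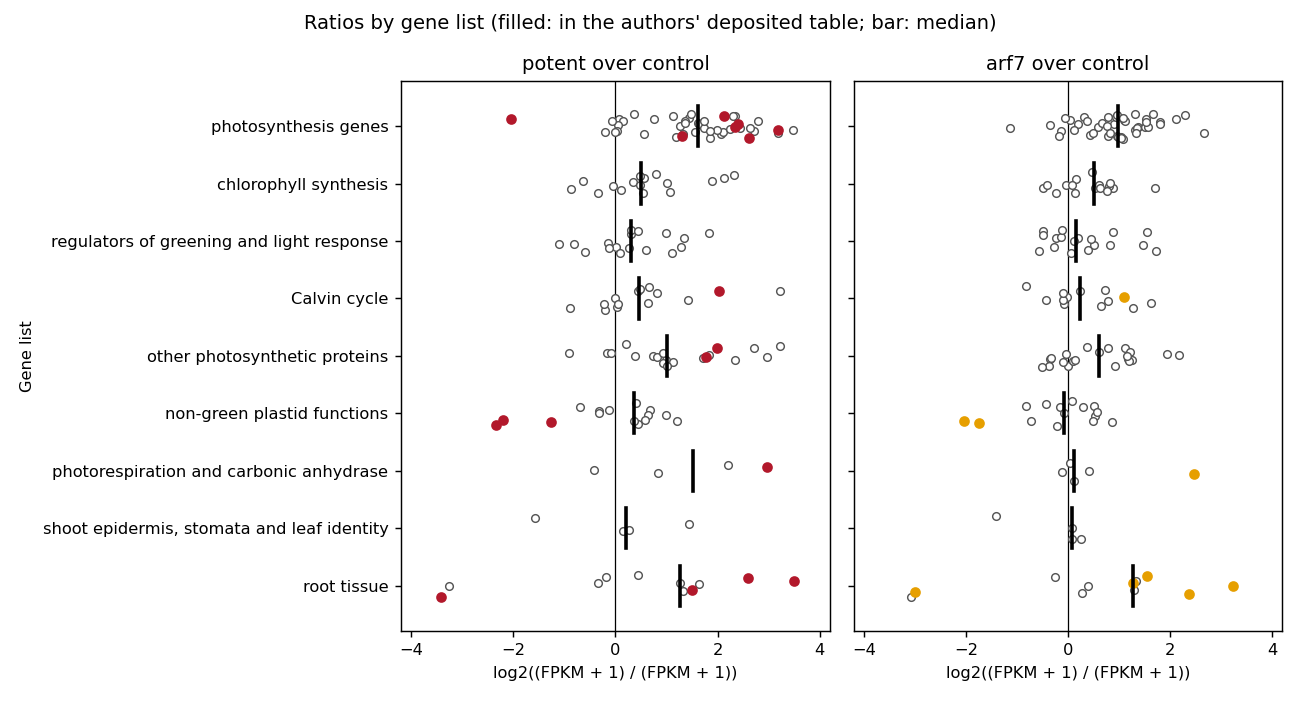
log2 ratio over control on the log2(FPKM + 1) scale for each gene above 0 of the 44 photosynthesis genes and of 8 other lists, in potent (left) and arf7 (right). Filled points are in the authors' deposited table and black bars are medians, 1.63 in potent and 0.97 in arf7 for the photosynthesis genes.

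No regulator of greening or light response is listed among 19 measured, where 3.44% of all loci are listed as higher in potent and 2.02% in arf7. At least 2-fold higher were 4 of 17 above 0 in potent or control, or 23.5%, against 17.5% of all loci, and 3 of 18 above 0 in arf7 or control, or 16.7%, against 12.9%. The median log2 ratios were 0.31 in potent and 0.16 in arf7. PIF3 (AT1G09530), a phytochrome-interacting factor, had 2.67 FPKM in potent, 2.42 FPKM in arf7 and 0.0293 FPKM in the control. SIG5 (AT5G24120), a sigma factor of the plastid RNA polymerase, had 9.16 FPKM in potent, 10.6 FPKM in arf7 and 2.98 FPKM in the control. GLK2 (AT5G44190), an activator of chloroplast genes, had 13.2 FPKM in potent, 15.2 FPKM in arf7 and 4.86 FPKM in the control. HY5 (AT5G11260), a light-signalling factor, had 66.9 FPKM in potent, 83.4 FPKM in arf7 and 102 FPKM in the control. Its relative HYH (AT3G17609) had 161 FPKM in potent, 119 FPKM in arf7 and 129 FPKM in the control. The GATA factors GNC (AT5G56860) and CGA1 (AT4G26150) stayed below 1 FPKM in all 3 genotypes.

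Markers of shoot tissue other than green plastids were near the floor of the table. Of 15 genes of stomata, shoot epidermis and leaf identity, 10 are listed at 0 in all 3 genotypes, among them FAMA (AT3G24140), SPCH (AT5G53210), YAB1 (AT2G45190), STM (AT1G62360) and KCS6 (AT1G68530). The summed level of the 15 was 12.0 FPKM in potent, 5.62 FPKM in arf7 and 10.2 FPKM in the control, nearly all from MYB60 (AT1G08810) and CER1 (AT1G02205). MYB60 had 9.98 FPKM in potent, 3.28 FPKM in arf7 and 3.04 FPKM in the control, and CER1 had 1.75 FPKM in potent, 2.08 FPKM in arf7 and 7.16 FPKM in the control.

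Markers of root tissue were abundant and differed in both directions. Of 12 root markers 11 were above 0, and in each mutant 6 were at least 2-fold higher than in the control and 2 at least 2-fold lower. The 6 made up 54.5% in each mutant, where 17.5% of all loci were at least 2-fold higher in potent and 12.9% in arf7. At least 2-fold lower were 14.1% of all loci in potent and 11.2% in arf7. Their summed level was 7019 FPKM in potent, 6248 FPKM in arf7 and 2541 FPKM in the control, most of it from CASP1. The vessel protease gene XCP1 (AT4G35350) rose in both mutants in the authors' deposited table, with 261 FPKM in potent, 222 FPKM in arf7 and 42.2 FPKM in the control. CASP1 (AT2G36100), of the endodermal Casparian strip, had 4255 FPKM in potent, 3353 FPKM in arf7 and 1375 FPKM in the control. PIN2 (AT5G57090), an auxin carrier of young outer tissue, fell in both mutants in the authors' deposited table, and PLT1 (AT3G20840), of the stem cell region, is listed at 0 in all 3. WER (AT5G14750), of the non-hair epidermis, had 0.438 FPKM in potent, 0.648 FPKM in arf7 and 12.8 FPKM in the control and is not listed. SCR (AT3G54220), SHR (AT4G37650) and COBL9 (AT5G49270) stood at 0.786 to 1.37 times the control in both mutants. The part that the makeup of root tissue has in the photosynthesis values was not tested.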

How the data were processed

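Per the submitters' processing notes, Bowtie2, Bowtie, TopHat2, TopHat, Cufflinks and Cuffdiff were used with build TAIR10; the labels state no version, setting or annotation release. Per the labels' protocols, libraries followed Picelli and co-workers, a method for full-length cDNA from very little RNA that does not mark strand. The authors deposited 1 value per locus and genotype, taken as FPKM because the header gives no unit, the values are not whole and Cufflinks is named. The authors' deposited comparison table holds 2577 entries with a q-value (0.00145 to 0.00945) and a log2 fold change of mutant over control, given as text in 490 entries where a genotype is at 0. An FPKM depends on transcript length and on the total, so abundant transcripts can lower all others. The depth is unknown, so the counting error of each value cannot be estimated.

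From these values, log2((FPKM + 1)/(FPKM + 1)) was computed with pandas 2.3.3, over loci above 0 in at least 1 of the 2 genotypes compared; the pseudocount understates changes of low genes. No test could be run on 1 value per group, so the comparisons are of these values alone. Identity of coding sequences and 50-base windows found elsewhere in the genome came from TAIR10.1 (Biopython 1.88). Of the 44 genes, 14 overlap another annotated gene. The members and lists were chosen with earlier results of these data known. All 46 genes are named or counted; of each other list, genes in the authors' table were eligible and otherwise at most 4 of the most abundant, and further genes named for their role, for a value of 0 or for a large difference were chosen after their values were seen.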

Additional observations from a re-analysis of the deposited data

How the results depend on the processing

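No paired analysis was possible because the table holds 1 value per genotype, with no replicate numbers, and for the same reason leaving out single replicates was not run. The median log2 ratios of the photosynthesis genes kept their direction under every alternative. The filters by FPKM level keep a gene by its highest value in any group. A gene low in the control can thus pass through a mutant alone, which favours higher ratios over control. These filters are therefore no check on those ratios. The genes called near-identical copies below were set by hand and not by a cut-off of identity. They include PSAD1, PSAH1 and PSAH2, whose pairs are 88.0% and 87.0% identical in coding sequence with no 50-base window elsewhere. RBCS1A, 90.4% to 90.6% identical to the other RBCS genes, was not among them. For potent over control (1.63) the median was 1.95 with a pseudocount of 0.1, 1.85 with at least 1 FPKM in some group, 1.86 with at least 5 FPKM, 1.67 with equal sums, 1.68 with median scaling, 1.85 without near-identical copies, 1.85 without genes sharing 50-base windows and 1.74 without genes at 0 in some group. For arf7 over control (0.97) the values in that order were 1.12, 1.07, 1.07, 1.05, 1.01, 1.07, 1.04 and 1.04. For potent over arf7 (0.65) they were 0.71, 0.68, 0.68, 0.60, 0.66, 0.65, 0.66 and 0.65.

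Counts of at least 2-fold lower genes, 1 for each mutant over control, became 0 with at least 5 FPKM or without genes at 0, and 2 for arf7 with the pseudocount of 0.1. For potent over arf7, 16 were higher and 1 lower with that pseudocount, and 6 were higher without near-identical copies, against 10 and 0. Fewer genes enter the filtered counts, and no share of all loci was taken under the same filters. The windows alternative was chosen after seeing the data. With either scaling, the median log2 ratio of all loci above 0 in any genotype lay between -0.0055 and 0.0237. Depth and the spread between samples limit every value and could not be estimated.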

Other observations

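Of 15 measured genes for non-green plastid functions, 8 had a higher value in potent than in the control and 7 a lower one, with a median log2 ratio of 0.36. The list was set by hand, and whether each of its genes acts only outside green tissue was not tested. In potent, 1 was at least 2-fold higher, where 17.5% of all loci were, and 3 were at least 2-fold lower, where 14.1% were. The higher one was GLU1 (AT5G04140), at a low level, with 1.39 FPKM in potent, 0.445 FPKM in arf7 and 0.0363 FPKM in the control. In arf7, 0 were at least 2-fold higher, where 12.9% of all loci were, and 2 at least 2-fold lower, where 11.2% were, with a median of -0.08. The fatty acid synthesis genes KAS1 (AT5G46290), MOD1 (AT2G05990) and CAC1 (AT5G16390) fell in potent in the authors' deposited table, and KAS1 and MOD1 fell in arf7 too. KAS1 had 23.2 FPKM in potent, 28.8 FPKM in arf7 and 121 FPKM in the control. FD3 (AT2G27510), the root-type ferredoxin, had 824 FPKM in potent, 939 FPKM in arf7 and 516 FPKM in the control, and the root-type reductase RFNR2 (AT1G30510) had 108 FPKM in potent, 125 FPKM in arf7 and 118 FPKM in the control. Neither is listed.

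Of 130 plastid-encoded loci, 83 were above 0 in potent, 89 in arf7 and 92 in the control. All loci with a plastid identifier were taken, without a selection for photosynthesis. Their median log2 ratios were -0.02 for potent over control and 0.00 for arf7 over control. In potent, 13 were at least 2-fold higher, or 14.1%, against 17.5% of all loci, and 9 at least 2-fold lower, where 14.1% of all loci were. In arf7, 9 were at least 2-fold higher, or 9.47%, against 12.9% of all loci, and 4 at least 2-fold lower, where 11.2% were. The authors' deposited table lists 1 of them, where it lists 3.44% of all loci as higher in potent. This locus is ATCG00340, named PSAB there, which encodes a core protein of photosystem I. It rose in potent, with 48.8 FPKM in potent, 25.2 FPKM in arf7 and 18.2 FPKM in the control. The mitochondrial photorespiration gene SHM1 (AT4G37930) rose in both mutants in the authors' deposited table, with 37.6 FPKM in potent, 26.4 FPKM in arf7 and 3.96 FPKM in the control. It is 1 of 5 measured photorespiration genes. At least 2-fold higher were 2 of the 4 above 0 in potent or control, or 50%, against 17.5% of all loci. In arf7, 1 of 5 was, or 20%, against 12.9%. GLDP1 (AT4G33010) had 16.0 FPKM in potent, 28.9 FPKM in arf7 and 21.6 FPKM in the control.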
